A study of Mus musculus with 12 samples.

Results

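The clustered histone genes are mostly replication-dependent histone genes that lie at 4 genomic loci, named Hist1 to Hist4 in the mouse nomenclature used by the deposited table. They were taken by name: a gene whose symbol began with Hist1h, Hist2h, Hist3h or Hist4h was a member, and 1 of the 69 matching names was left out because it carries the ending of a pseudogene name. This gave 68 members of 54146 genes, of which 65 were above 0 in at least 1 library and 39 passed the filter for testing (at least 1 TPM, a transcript abundance scaled for length and library total, in at least 3 libraries). Of these members, 55 were in Hist1 on chromosome 13, 10 in Hist2 on chromosome 3, 2 in Hist3 on chromosome 11 and 1 in Hist4 on chromosome 6. By the histone in their name, 6 are H1 genes (2 tested), 19 H2A (10 tested), 18 H2B (12 tested), 12 H3 (6 tested) and 13 H4 (9 tested); Hist1h2aj, 1 of the tested H2A members, is annotated as an unprocessed pseudogene. Hist1h1t, Hist2h2aa1 and Hist1h2bn were listed at 0 in every library.

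RNA was sequenced from D2A1 cells, a mouse mammary carcinoma line, recovered from mouse lungs after tail vein injection. The cells carried an inducible H2B-GFP reporter and the membrane dye CellVue Claret (CVC), which is diluted at division, so GFP+ CVC-positive cells were sorted as dormant and GFP+ CVC-negative cells as growing. Hosts were either control mice (WT) or mice with Tgfbr2, the type II TGF-beta receptor, deleted in myeloid cells by a Cre recombinase under the Lysozyme 2 promoter (KO). The tumour cells of both hosts were of the same line and carried the same reporter, and the groups differed in host genotype, sorted state and library batch. This gave 4 groups of 3 libraries, called dormant WT and dormant KO, growing WT and growing KO, and the comparisons asked how the states differ and whether the host changes that difference. All WT libraries carry batch 1 in their library names and all KO libraries batch 2, so host and batch cannot be told apart, whereas the dormant and growing libraries of 1 host share a batch. The deletion was in host cells and not in the sorted tumour cells, so the Tgfbr2 level, 0.14 to 11.5 TPM over the 12 libraries, is no check of the genotype labels.

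Histones package DNA: H2A, H2B, H3 and H4 form the nucleosome core and H1 binds the linker between cores. Clustered histone genes are transcribed mainly during S phase, from histone locus bodies that hold the activator NPAT, and their messages end in a conserved stem-loop rather than in a poly(A) tail. The stem-loop is bound by SLBP, the pre-mRNA is cut with the help of the U7 snRNP (LSM10 and LSM11 are its specific subunits), and the message is degraded when DNA synthesis stops. Some of these genes also give polyadenylated messages, known from differentiated and non-dividing cells. The labels give polyA RNA as the molecule, and such a library sees the polyadenylated part of histone RNA, or reads primed inside a transcript, and not the stem-loop messages as a whole. All levels below are therefore levels of that part, in TPM, which is already scaled by transcript length.

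The libraries differed in more than histones. The table holds TPM with the same total in every library, so sequencing depth is unknown. Genes above 0 numbered 11325 to 13242 in dormant WT and 13406 to 15315 in the other groups. Of 4009 genes at 10 TPM or more in every growing library, 4.27% to 12.2% were listed at 0 in a dormant WT library and 0.723% to 0.823% in a dormant KO library, so a 0 in dormant WT is given below as a listed value and not as absence. Dormant WT libraries also held 181 to 215 olfactory receptor genes above 0 against 11 to 38 in the other groups, and 21218 to 41597 TPM of 12 satellite-repeat genes against at most 69.8 TPM elsewhere. Markers of alveolar type 2 cells summed to 40207 to 42496 TPM in dormant KO and to at most 472 TPM in any other library. Of 10 markers of mammary carcinoma epithelium, 3, 8, 3 and 5 were at 1 TPM or more in every library of dormant WT and dormant KO, then growing WT and growing KO; Krt8, Krt18 and Spint2 were among them in all 4 groups, and Cldn4 was listed at 0 throughout.

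The sequence at the end of each message is shown first, because it decides which part of histone RNA a polyA library can hold. A stem-loop was searched as a stem of 6 bases starting GG, a loop of 4 bases starting TT, and the exact reverse complement of the stem. It was found in the GENCODE M21 transcripts (mouse build GRCm38, mm10) of 44 of the 68 members, against 130 of 21901 protein-coding genes (0.594%). The same 16 bases, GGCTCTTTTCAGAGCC, were found in 26 members of the H1, H2A, H2B and H3 classes, and 7 H4 members shared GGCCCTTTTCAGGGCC. The 4 members that the results turn on are shown as RNA-sense DNA from 5 bases before to up to 5 bases after the stem-loop, which is in capitals.
Hist1h2ap: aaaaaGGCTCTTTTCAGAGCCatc
Hist2h2aa2: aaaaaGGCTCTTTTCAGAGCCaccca
Hist1h4h: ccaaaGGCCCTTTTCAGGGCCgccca
Hist1h4i: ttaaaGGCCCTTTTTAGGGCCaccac
These stem-loops lie in the 3′ untranslated ends of genes with a single exon, at chr13:21833029-21833044 (minus strand), chr3:96246032-96246047 (plus), chr13:23531458-23531473 (plus) and chr13:22040966-22040981 (minus). The annotated Hist1h2ap transcript of 482 bases stops 3 bases after its stem-loop, that of Hist2h2aa2 35 bases after, that of Hist1h4h 46 bases after and that of Hist1h4i 330 bases after. Hist1h2bc, in contrast, is annotated as a spliced transcript of 1156 bases and 2 exons with no such stem-loop.

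The promoters of the same genes were read from RefSeq (GRCm38.p6), where 61 of the 68 members matched. Over the window from 250 bases before to 50 bases after the start, on both strands, CCAAT was found in 52 of 61 members (85.2%) and in 37.4% of all 32851 promoters, TATAAA in 34 of 61 (55.7%) and in 13.6%, and ATTTGCAT, the octamer motif, in 13 of 61 (21.3%) and in 1.74%. The octamer was found in 7 of 18 H2A and 6 of 16 H2B promoters and in no H1, H3 or H4 promoter. CCAAT was in every H1, H2A, H2B and H3 promoter and in 3 of 12 H4 promoters. A match describes the letters and no factor was measured there. Hist1h2ap and the H2B gene Hist1h2br point away from each other, and the 235 bases between their starts, chr13:21833508-21833742, are shown on the plus strand with 3 matches to CCAAT (as CCAAT or its complement ATTGG) in capitals; neither of the other motifs is in this stretch.
Hist1h2ap to Hist1h2br: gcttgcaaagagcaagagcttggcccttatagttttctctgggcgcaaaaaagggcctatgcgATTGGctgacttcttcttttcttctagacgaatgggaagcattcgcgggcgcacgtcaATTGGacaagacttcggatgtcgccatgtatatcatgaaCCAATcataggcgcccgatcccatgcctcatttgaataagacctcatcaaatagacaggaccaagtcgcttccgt
The 120 bases before the start of Hist2h2aa2 (chr3:96245377-96245496, plus) hold CCAAT once on each strand, and those before the start of Hist1h4h (chr13:23530924-23531043, plus) hold none of the 3 motifs.
Hist2h2aa2: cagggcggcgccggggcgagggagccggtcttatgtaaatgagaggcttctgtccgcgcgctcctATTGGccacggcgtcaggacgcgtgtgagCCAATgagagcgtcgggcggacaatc
Hist1h4h: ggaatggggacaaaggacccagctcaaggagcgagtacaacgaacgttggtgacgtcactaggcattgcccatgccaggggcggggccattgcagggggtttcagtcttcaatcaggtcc

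Near-identical copies limit what a level says about 1 gene. Only 6.93% of the 50-base stretches of Hist1h2ap are found in no other gene, most of the rest being shared with Hist1h2ao, and none of those of Hist2h2aa2, Hist2h2aa1, Hist2h2bb, Hist2h3b or Hist2h3c1 is specific. Hist2h3c2 has 36.5%, Hist1h4h 54.2%, Hist1h2bc 69.4% and Hist2h2be 100%. The authors' RSEM estimates divide shared reads among copies, so the levels of the near-identical pairs Hist1h2ap with Hist1h2ao, Hist2h2aa2 with Hist2h2aa1, and Hist1h2bq with Hist1h2br are uncertain for each gene alone. Genes outside the members share stretches too. All 537 of Hist2h2aa2 are in Gm20633, and all 439 of Hist2h3b and all 332 of Hist2h2bb are in Gm20628. The levels of these genes are not given and were not summed with those of the members.

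The summed level of the 68 members was lowest in dormant WT and highest on average in growing WT. It was 554, 731 and 920 TPM across dormant WT, 1158, 1083 and 1026 TPM across dormant KO, 1527, 1383 and 1315 TPM across growing WT and 1337, 1130 and 1282 TPM across growing KO. The dormant WT libraries lay below all others, growing WT lay above dormant KO, and growing KO and dormant KO overlapped. These are descriptions with no test, and in such bulk libraries a smaller number of expressing cells and less RNA per cell cannot be told apart. A single gene carried the sum in growing cells: Hist1h2ap, an H2A gene, made up 69.0% ± 3.1 of it in growing WT and 68.6% ± 2.1 in growing KO (SD, n = 3 libraries), against 36.0% ± 13.5 in dormant WT and 15.7% ± 2.4 in dormant KO. The other 67 members together gave 455 ± 38.9, 918 ± 50.4, 438 ± 65.5 and 392 ± 32.9 TPM in dormant WT and dormant KO, then growing WT and growing KO (SD, n = 3), so without Hist1h2ap the dormant KO libraries were the highest and the other 3 groups overlapped. On a log2 scale the dormant WT minus growing WT difference of the sum was -0.97 with Hist1h2ap and 0.06 without it, and dormant KO minus growing KO was -0.20 with it and 1.23 without it. The sign of -0.20 turned with the scaling, to 0.40 with median-ratio scaling and 0.0886 with quantile normalization.

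**Figure D1:**
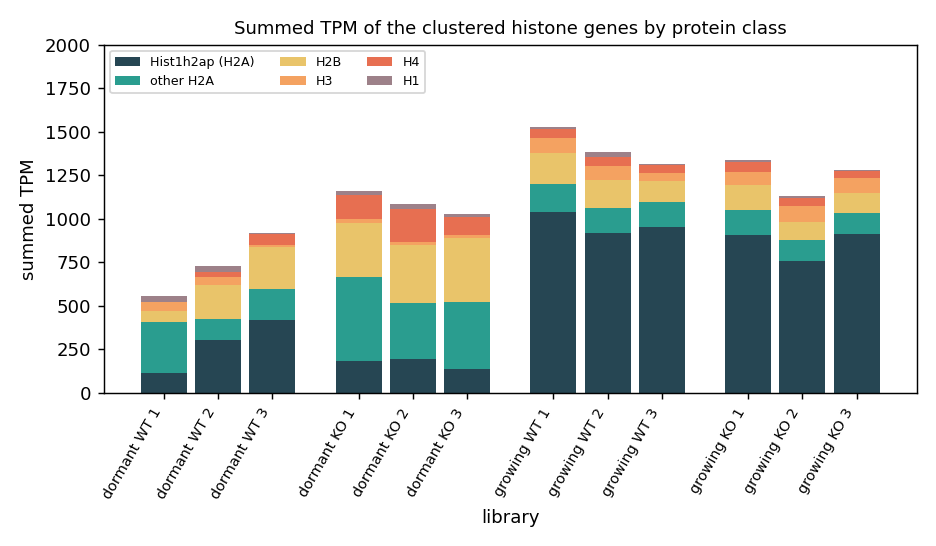
Summed TPM of the 68 clustered histone genes in each of the 12 libraries (bars, y axis from 0), split by colour into Hist1h2ap, the other H2A genes, H2B, H3, H4 and H1. Hist1h2ap fills most of each growing bar (66.3% to 72.4%), and the dormant KO bars are filled mainly by other H2A, H2B and H4 genes.

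The makeup by protein class differed with the state. H2A took 76.7% to 83.3% of the summed TPM in the growing libraries, 57.8% to 73.5% in dormant WT and 47.7% to 57.5% in dormant KO. H2B took 26.6% to 35.7% in dormant KO against 8.79% to 11.7% in the growing libraries, with dormant WT at 11.9% to 26.7%. H4 took 9.95% to 17.7% in dormant KO and at most 6.76% in any other library. H3 had its lowest mean in dormant KO, with 17.99 to 22.6 TPM against 45.1 to 90.9 TPM in the growing libraries, and dormant WT spanned 15.1 to 50.1 TPM. H1 was a small part, at most 37.4 TPM in any library. More members were above 0 in growing WT (39 to 46) than in growing KO (32 to 36), dormant KO (31 to 33) or dormant WT (15 to 19).

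Differences between groups were tested on log2(TPM + 1) with limma over 13002 genes, and a gene was called if its adjusted p did not exceed 0.05 and its difference reached 1 or more. In dormant WT minus growing WT, 0 of the 39 tested members were called higher (1.85% of all tested genes were) and 6 were called lower (5.67% of all genes; 7.51% in either direction). In dormant KO minus growing KO, 3 were called higher (8.31% of all genes) and 3 lower (9.48%; 17.8% in either direction). Averaged over hosts, 2 were called higher (6.99%) and 10 lower (12.6%; 19.6% in either direction). Between hosts, 5 were called higher (12.9%) and 1 lower (9.39%; 22.3% in either direction) in dormant KO minus dormant WT, and 0 in growing KO minus growing WT in either direction (0.977% of all genes were called), where 3 members had an unadjusted limma p under 0.05. The state difference itself differed between hosts for 4 members, all higher in the KO host (6.18% of all genes), and for 0 in the other direction (3.91%; 10.1% in either). The filter bears on these counts. Of the 39 tested members, 15 met it on the dormant libraries alone and on the growing libraries alone, whereas 16 met it only with the growing libraries and had under 3 dormant libraries at 1 TPM or more. Of the lower calls, 3 of the 6 in dormant WT and 6 of the 10 averaged over hosts were of such members, as was 1 of the 4 called differences between hosts (Hist1h4d), so no support is drawn from these counts. Over the 15 members, a subset chosen after seeing the data, 0 were higher and 3 lower in dormant WT (2.09% and 5.30% of the 8857 genes that met the same condition), and 2 were higher and 4 lower averaged over hosts (4.04% and 12.5%). Their median difference was -0.96 in dormant WT minus growing WT and 1.03 in dormant KO minus growing KO, beside -0.39 and -0.44 over those 8857 genes. Over all 39 tested members the medians were -0.96 and 0.0538. Of the 15, Hist1h4h and Hist2h2be met the condition on the dormant libraries through dormant KO alone. That condition leaves out members low in dormant cells, so no support is drawn from the medians of the 15. The dormant WT count over all 39 was 2 with a minimum of 5 TPM or without growing WT replicate 2, and 1 with pseudocount 5 or array weights.

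**Figure D2:**
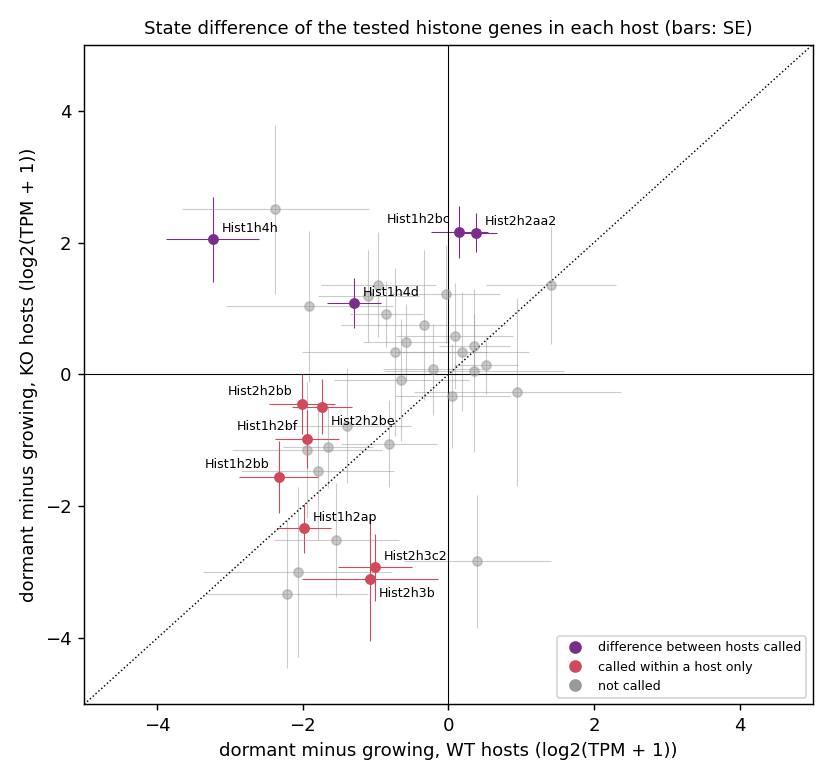
Dormant minus growing difference in log2(TPM + 1) of the 39 tested members in WT hosts (x axis) and KO hosts (y axis), with standard errors as bars and a dotted line of equal differences. Purple marks a called difference between hosts, red a call within a host and grey no call. Hist1h2ap lies near the line with both differences about -2, whereas Hist1h2bc and Hist2h2aa2 lie near 0 in WT hosts and near 2 in KO hosts.

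Of the tested H2A genes, Hist1h2ap was the one called lower in dormant cells in both hosts. Its level was 114, 305 and 421 TPM across dormant WT, 182, 195 and 136 TPM across dormant KO, 1042, 917 and 952 TPM across growing WT and 907, 756 and 910 TPM across growing KO. All 6 dormant libraries lay below all 6 growing ones. The difference on the log2(TPM + 1) scale was -1.98 ± 0.37 in WT hosts (SE, limma adjusted p = 0.00826) and -2.33 ± 0.37 in KO hosts (adjusted p = 0.00102). The state differences of the hosts were -0.35 ± 0.52 apart (limma adjusted p = 0.771). The WT call was lost when the fit held only dormant WT and growing WT (adjusted p = 0.088). Its copy Hist1h2ao was at 9.29 to 9.88 TPM in growing WT, while 2 of 3 dormant WT libraries listed it at 0 and the third had 20.01 TPM. Hist1h2br, which shares the promoter stretch shown above, was at 31.1 TPM or less in every library and was called in no comparison.

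Hist2h2aa2, another H2A gene, went the other way in KO hosts. It was at 464, 305 and 368 TPM across dormant KO, at 194, 99.5 and 92.2 TPM across dormant WT, at 92.5, 88.2 and 99.1 TPM across growing WT and at 90.4, 75.8 and 84.8 TPM across growing KO. Every dormant KO library lay above every other library. It was 2.15 ± 0.30 higher in dormant KO than in growing KO (SE, limma adjusted p = 3.96e-04) and 1.62 ± 0.30 higher than in dormant WT (adjusted p = 0.00195). Dormant WT minus growing WT gave 0.38 ± 0.30 (limma adjusted p = 0.477), and the difference between the hosts' state differences was 1.77 ± 0.42 (adjusted p = 0.0195). That last call was lost without growing WT replicate 3 (adjusted p = 0.055) or growing KO replicate 2 (adjusted p = 0.051).

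A further pair of H2A genes is given. Hist3h2a, a gene of the Hist3 cluster annotated to run 1643 bases past its stem-loop, was at 43.0, 17.4 and 31.4 TPM across dormant WT and at 13.01, 10.2 and 14.1 TPM across dormant KO, and at 9.60 to 24.8 TPM in growing cells. It was called in no comparison. Hist1h2ae had 21.6 TPM in dormant WT replicate 1, at most 0.72 TPM in the other 5 dormant libraries and 3 to 21.1 TPM in the growing ones. It met the filter only with the growing libraries, so its values are a description with no test.

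Among H2B genes, Hist1h2bc followed the pattern of Hist2h2aa2. Its level was 269, 252 and 314 TPM across dormant KO, 56.3, 76.8 and 198 TPM across dormant WT, 94.0, 84.0 and 79.5 TPM across growing WT and 57.2, 55.4 and 72.2 TPM across growing KO. The dormant KO libraries lay above all others, and dormant WT replicate 3 stood apart from the other dormant WT libraries. Hist1h2bc was 2.16 ± 0.39 higher in dormant KO than in growing KO (SE, limma adjusted p = 0.00226) and 1.54 ± 0.39 higher than in dormant WT (adjusted p = 0.0135), the latter not called when only the groups compared were fitted (adjusted p = 0.107). In WT hosts the state difference was 0.15 ± 0.39 (limma adjusted p = 0.876). The difference between hosts in the state difference was 2.02 ± 0.55 (adjusted p = 0.0396); it was lost when any single library other than dormant WT replicates 1 and 3 was left out (adjusted p up to 0.0968). That call was also lost with no filter. The reporter in these cells is itself an H2B fusion, whose coding sequence was not given in the sources used here, and how many of its reads were assigned to H2B genes was not tested.

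Several low H2B genes were above 0 in growing libraries and listed at 0 in all 6 dormant ones. They passed the filter only through the growing libraries, so their values are a description with no test and no fold. Hist1h2bb was at 4.54, 8.38 and 1.44 TPM across growing WT and at 4.05, 2.32 and 0.51 TPM across growing KO. Hist1h2bf was at 3.42, 3.25 and 1.98 TPM across growing WT and at 0 to 2.76 TPM in growing KO. Hist2h2bb was at 1.3, 5.63 and 3.28 TPM across growing WT, above 0 in 1 growing KO library (1.57 TPM) and listed at 0 in every dormant library. Hist1h2bg was at 0.16 to 6.29 TPM over the growing libraries.

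Hist2h2be, a gene with a long annotated transcript and no shared 50-base stretch, was called in both the state and the host comparison. It was listed at 0 in dormant WT and was at 2.35, 1.02 and 2.62 TPM across dormant KO, 1.79, 1.91 and 3.57 TPM across growing WT and 3.31, 3.51 and 2.48 TPM across growing KO. Dormant WT was lower than growing WT (limma adjusted p = 0.025) and dormant KO was higher than dormant WT (adjusted p = 0.0179), while dormant KO and growing KO overlapped. The first call was lost without any growing WT library (adjusted p up to 0.105) and the second without dormant KO replicate 1 or 3 (adjusted p up to 0.0557). Both were also lost with pseudocount 5, quantile normalization or array weights, and the first with no filter or the replicate block as well (adjusted p up to 0.209). Hist1h2bk was at 12.97 to 15.3 TPM in growing KO, at 0 to 4.10 TPM in growing WT and at 10.2 TPM or less in dormant libraries. It met the filter only with the growing libraries too, and no test is given. Hist1h2bq, at 1.44 to 37.3 TPM over the libraries, was called in no comparison.

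**Figure D3:**
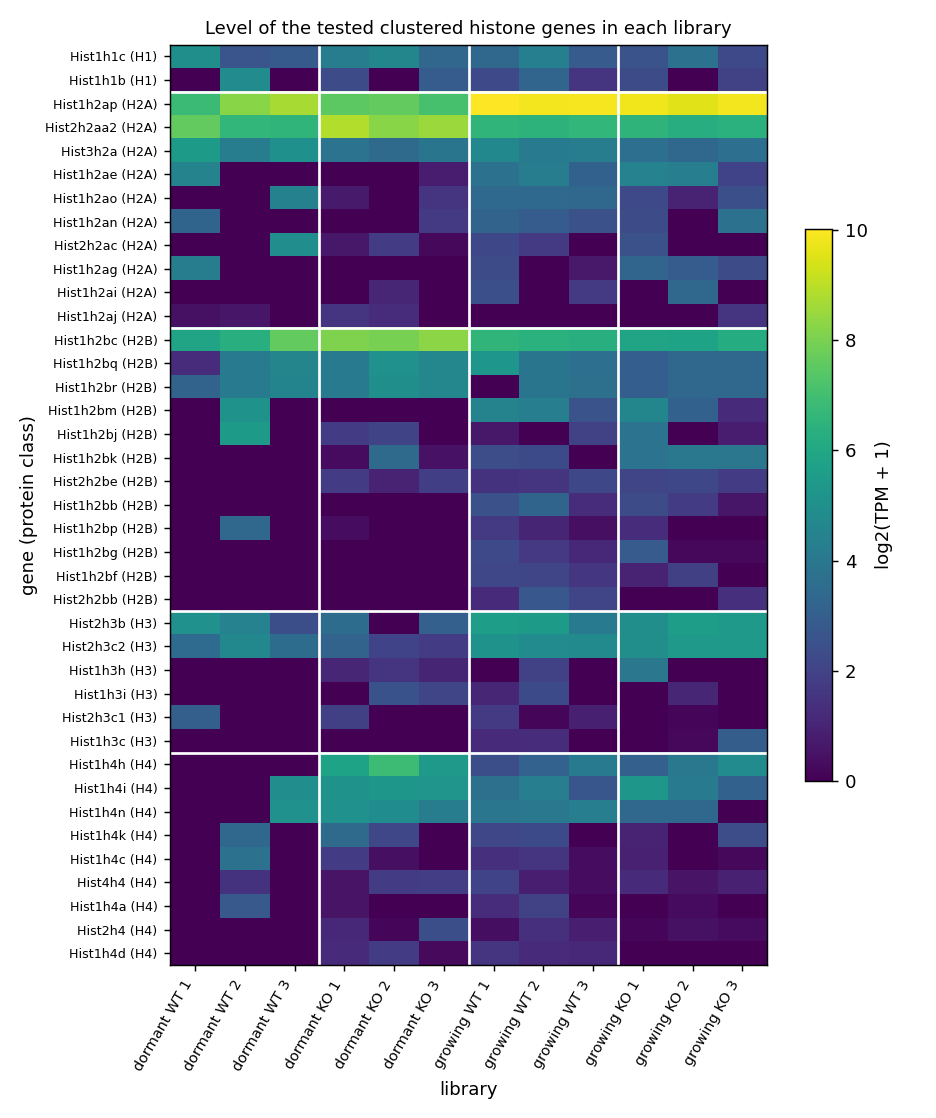
Heat map of log2(TPM + 1) for the 39 tested members (rows, grouped by protein class and ordered by mean level) in the 12 libraries (columns, grouped by group). The row of Hist1h2ap is brightest in the growing libraries, those of Hist2h2aa2 and Hist1h2bc in dormant KO, and 21 to 26 of the 39 genes are at 0 in each dormant WT library.

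The 2 leading H3 genes, both in the Hist2 cluster, had their lowest means in dormant KO. Hist2h3c2 was at 8.06, 3.06 and 2.41 TPM across dormant KO, 10.37, 24.9 and 10.7 TPM across dormant WT, 34.6, 27.6 and 26.4 TPM across growing WT and 29.8, 42.2 and 40.3 TPM across growing KO. All dormant libraries lay below all growing ones. It was lower in dormant KO than in growing KO, with a difference of -2.93 ± 0.51 (SE, limma adjusted p = 0.0019) and lower than in dormant WT, with a difference of -1.59 ± 0.51 (adjusted p = 0.0419); dormant WT minus growing WT was -1.01 ± 0.51 (adjusted p = 0.261). The call between hosts was lost in turn without 9 libraries, each except dormant WT replicates 1 and 3 and dormant KO replicate 1 (adjusted p up to 0.134). It was also lost with pseudocount 5, median-ratio scaling, quantile normalization, array weights, the replicate block or only the groups compared (adjusted p up to 0.222). Hist2h3b, with no stretch specific to it, was at 10.7, 0 and 7.43 TPM across dormant KO, 32.5, 20.9 and 4.34 TPM across dormant WT and 16.3 to 46.8 TPM in growing cells. It was lower in dormant KO than in growing KO, with a difference of -3.10 ± 0.94 (SE, limma adjusted p = 0.0389), a call lost without dormant KO replicate 2, growing WT replicate 1 or 2, or any growing KO replicate (adjusted p up to 0.117). This call was also lost with pseudocount 0.1, no filter, median-ratio scaling, the replicate block or only the groups compared. Hist1h3h, next by level, was at 14.8 TPM in growing KO replicate 1 and at 2.85 TPM or less elsewhere, and was called in no comparison.

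The summed H4 level was 102 to 191 TPM in dormant KO, 41.1 to 58.1 TPM in the growing libraries and 0 to 62.2 TPM in dormant WT. Hist1h4h was at 55.7, 116 and 40.5 TPM across dormant KO, 4.31, 7.89 and 16.7 TPM across growing WT and 7.40, 15.2 and 27.4 TPM across growing KO, and was listed at 0 in all 3 dormant WT libraries. Every dormant KO library lay above every growing one. Dormant KO was above dormant WT (limma adjusted p = 5.13e-05) and dormant WT below growing WT (adjusted p = 0.011, lost without growing WT replicate 3, adjusted p = 0.056). The latter call was also lost with pseudocount 5 or array weights (adjusted p up to 0.143). Dormant KO was 2.05 ± 0.64 above growing KO (SE, limma adjusted p = 0.0449), a call lost without any dormant KO library, growing WT replicate 1 or 2, or growing KO replicate 1 or 2 (adjusted p up to 0.165). This call was also lost with pseudocount 0.1, no filter, array weights or the replicate block. The hosts' state differences differed (adjusted p = 0.004), in opposite directions, in every setting tried.

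Hist1h4i was at 34.2, 38.1 and 36.5 TPM across dormant KO and, in dormant WT, listed at 0 in replicates 1 and 2 and at 29.2 TPM in replicate 3. Growing WT was at 12.1, 18.4 and 5.34 TPM and growing KO at 38.3, 16.6 and 7.71 TPM. Dormant KO was 3.58 ± 1.15 above dormant WT (SE, limma adjusted p = 0.0412), and that call stood only without dormant WT replicate 3 among the fits that leave out 1 library; in the other 11 the adjusted p reached 0.111. The call was also lost with no filter, array weights, the replicate block or only the groups compared. Hist1h4n had the same shape, with 32.6, 28.6 and 18.1 TPM across dormant KO and 33.0 TPM in dormant WT replicate 3 beside 0 in the other dormant WT replicates, and was called in no comparison. Hist1h4d, a low gene, was at 1.31, 2.47 and 0.19 TPM across dormant KO and 1.87, 1.32 and 1.22 TPM across growing WT, while every dormant WT and every growing KO library listed it at 0. It met the filter only through the 2 groups in which it is high, so these values are a description with no test.

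The linker histone genes were low throughout. Hist1h1c, which is annotated to run 840 bases past its stem-loop, was at 30.6, 5.20 and 6.07 TPM across dormant WT, 18.1, 23.4 and 9.01 TPM across dormant KO, 9.19, 18.96 and 6.38 TPM across growing WT and 4.90, 12.6 and 3.59 TPM across growing KO. The groups overlapped and no comparison was called. Hist1h1b was at 27.96 TPM in dormant WT replicate 2, was listed at 0 in the other dormant WT libraries and was at 8.77 TPM or less elsewhere. Hist1h1d, the next by level, reached 4.26 TPM in dormant WT replicate 2 and was not tested.

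The members were also split by the annotated end of their transcripts. In 22 members (14 tested) the annotated transcript ends within 100 bases of the stem-loop, in 22 (11 tested) it runs more than 100 bases past it, and in 24 (14 tested) no stem-loop was found. Some annotated transcripts of the last kind are short, such as 312 bases for Hist1h4k and 381 for Hist2h2bb, and may stop before the 3′ untranslated end. This kind is therefore one of annotation and does not show that the genes lack a stem-loop. The summed group means of the first kind were 470, 657, 1133 and 1013 TPM across dormant WT and dormant KO, then growing WT and growing KO, those of the second 85.6, 80.1, 96.0 and 94.9 TPM, and those of the third 179, 352, 179 and 142 TPM. In dormant KO minus growing KO, where 8.31% of all genes were called higher and 9.48% lower, higher calls numbered 2, 0 and 1 and lower calls 1, 1 and 1. In dormant KO minus dormant WT, where 12.9% of all genes were called higher and 9.39% lower, higher calls numbered 2, 1 and 2 and lower calls 0, 1 and 0; those of the second kind were Hist1h4i, higher, and Hist2h3c2, lower. With Hist1h2ap and Hist2h2aa2 both in the first kind, genes with short annotated ends moved in both directions.

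The pathway that makes and handles histone mRNA was described next, from lists of other genes. Slbp, which binds the stem-loop, was at 164, 270 and 167 TPM across dormant WT, 125, 104 and 98.6 TPM across dormant KO, 364, 322 and 378 TPM across growing WT and 402, 516 and 368 TPM across growing KO. All dormant libraries lay below all growing ones, and dormant KO below dormant WT. The difference was -1.95 ± 0.23 in KO hosts (SE, limma adjusted p = 1.55e-04) and -0.86 ± 0.23 in WT hosts (adjusted p = 0.0429), which is under the size needed for a call. Npat was at 0.08 to 17.4 TPM, Lsm10 at 46.5 to 174 TPM and Lsm11 at 0 to 1.76 TPM, and none of these was called in either state comparison.

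Of 13 genes for 3′ end processing (12 tested), 1 was called lower in dormant WT than in growing WT and 2 in dormant KO than in growing KO, with none higher, beside 5.67% and 9.48% of all genes called lower. The list's median was -1.01 and -1.20, beside -0.35 and -0.32 over all tested genes. Besides Slbp these were Srrt, a cap-binding complex partner, at 1.07, 0 and 0 TPM across dormant WT and 18.3 to 36.2 TPM in growing WT (10.37 to 23.6 TPM in dormant KO and 21.7 to 42.5 TPM in growing KO, not called), and Fip1l1, a subunit of the cleavage and polyadenylation complex, at 3.26 to 6.62 TPM in dormant KO and 19.97 to 47.5 TPM in growing KO. In WT hosts Fip1l1 was at 41.5 to 69.3 TPM in dormant and 22.2 to 33.7 TPM in growing libraries, not called there (0.95 ± 0.46, SE, limma adjusted p = 0.243), and the hosts differed in this by -3.23 ± 0.66 (adjusted p = 0.00903). Among 12 transcription and cyclin E genes (11 tested), 0 were called in WT hosts, where the list's median was -1.03, and 2 were lower in KO hosts, beside 9.48% of all genes, with a median of -0.77. These met the filter only with the growing libraries and are a description: Ccne1 (0.02 to 2.42 TPM in dormant KO, 14.8 to 28.2 TPM in growing KO) and Ccne2 (at most 0.02 TPM against 11.9 to 15.8 TPM), the cyclins that activate CDK2 at S phase entry; dormant WT replicate 3 had 30.6 and 21.3 TPM of them and the other dormant WT libraries were listed at 0. Of 10 genes for histone mRNA decay, 1 was higher and 2 were lower in dormant WT (1.85% and 5.67% of all genes), and 0 were higher and 2 lower in dormant KO (8.31% and 9.48%). The medians were -0.17 and -0.25, above the -0.35 and -0.32 of all tested genes. Averaged over hosts the list's median was -0.55, below the -0.35 of all tested genes. Lsm4 was called lower in both hosts and did not need the growing libraries to meet the filter. Xrn1, the cytoplasmic 5′ to 3′ exonuclease, was at 11.8 to 21.2 TPM in dormant WT against 0.66 to 3.41 TPM in growing WT, and at 2.11 TPM or less in KO hosts. Zcchc11, a terminal uridylyltransferase, was at most 0.02 TPM in dormant WT against 4.47 to 7.33 TPM in growing WT, and at 10.9, 8.46 and 0.94 TPM across dormant KO against 3.5 to 7.87 TPM in growing KO. Xrn1 met the filter only with the dormant libraries and Zcchc11 only with the growing ones, so both are a description. Eri1, the 3′ exonuclease that acts on the stem-loop, was called lower in KO hosts, at 1.70 to 8.07 TPM in dormant KO against 13.8 to 20.7 TPM in growing KO; in WT hosts the dormant libraries, at 11.2 to 20.03 TPM, overlapped the growing ones, at 9.42 to 13.01 TPM.

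Of 19 histone chaperone genes, 3 were lower in dormant WT and 4 in dormant KO, with none higher, beside 5.67% and 9.48% of all genes called lower, and the medians were -0.98 and -0.94. Of the 4 in dormant KO, 1, Chaf1a, met the filter only with the growing libraries. Chaf1b, a subunit of the CAF-1 complex that deposits H3 and H4 on replicated DNA, was at most 0.23 TPM in dormant WT and 20.3 to 41.5 TPM in growing WT, and at 2.85 to 10.35 TPM in dormant KO against 21.1 to 57.3 TPM in growing KO. Hat1, which acetylates new H4, was at 0.67 to 45.8 TPM in dormant WT and 130 to 141 TPM in growing WT, and at 38.5 to 78.9 TPM in dormant KO and 174 to 184 TPM in growing KO, where it was not called. Nasp, a chaperone of soluble H3 and H4, was at 0.26 to 3.70 TPM in dormant WT and 18.3 to 30.6 TPM in growing WT, whereas in KO hosts the dormant libraries, at 3.17, 17.1 and 33.5 TPM, overlapped the growing ones, at 17.5 to 21.2 TPM. The state differences of Eri1, Hat1 and Nasp did not pass the test of a difference between hosts (limma adjusted p = 0.114, 0.258 and 0.184).

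Replacement histone genes, which lie outside the clusters and give polyadenylated mRNA through the cell cycle, summed to 3938 to 5795 TPM in dormant WT and 3714 to 4056 TPM in dormant KO against 7428 to 8109 TPM in growing cells. These sums exceeded those of the clustered genes in every library. Of the 11 genes, 3 were called lower in dormant WT (5.67% of all genes), and 4 lower and 2 higher in dormant KO (9.48% and 8.31% of all genes). The list medians were -0.70 and -0.64, beside -0.35 and -0.32 over all genes. H2afz, the H2A.Z gene, was lower in dormant cells of both hosts, with differences of -1.19 ± 0.15 in WT and -1.25 ± 0.15 in KO (SE, limma adjusted p = 8.69e-04 and 1.98e-04). H1f0, the linker histone known from arrested and differentiated cells, was at 31.0, 50.1 and 61.2 TPM across dormant KO and 402, 458 and 433 TPM across growing KO, and at 144, 298 and 293 TPM across dormant WT and 351, 401 and 390 TPM across growing WT. Its difference was -3.21 ± 0.31 in KO hosts (limma adjusted p = 4.18e-05) and -0.70 ± 0.31 in WT hosts (adjusted p = 0.195). H3f3b, an H3.3 gene, was lower in dormant KO than in growing KO (-1.11 ± 0.13, SE, limma adjusted p = 1.38e-04), while H3f3a, the other H3.3 gene, was higher there (1.31 ± 0.16, adjusted p = 1.76e-04). Neither H3.3 gene was called in WT hosts. The difference between hosts in the state difference was called for H1f0 (lower in the KO host) and H3f3a (higher), and not for H3f3b. H1f0 and H3f3b were also called lower in dormant KO than in dormant WT. Cenpa, the centromeric H3, was at 103 to 134 TPM in dormant KO against 533 to 566 TPM in growing KO, and at 148 to 250 TPM in dormant WT against 462 to 482 TPM in growing WT. H2afy2, a macroH2A gene, met the filter only with the dormant libraries and is a description, at 3.79 to 5.68 TPM in dormant KO against at most 2.53 TPM in the other groups.

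Part of the S phase and mitotic genes were called lower in dormant cells. Of 30 S phase genes, 9 were called lower in dormant WT and 10 in dormant KO, with none higher, and of 24 G2/M genes, 2 and 9, again with none higher; over all genes 5.67% and 9.48% were called lower. Of the S phase calls, 2 and 3 were of genes that met the filter only with the growing libraries, and of the G2/M calls 0 and 1. The S phase medians were -2.40 and -2.29 and the G2/M medians -1.93 and -2.49, beside -0.35 and -0.32 over all genes. The S phase list summed to 623 to 1040 TPM in dormant WT, 555 to 611 TPM in dormant KO, 1910 to 2060 TPM in growing WT and 2362 to 2486 TPM in growing KO. The G2/M list summed to 485, 764 and 1625 TPM across dormant WT, 554 to 602 TPM in dormant KO and 2480 to 3067 TPM in the growing libraries, and dormant WT replicate 3, the highest of the dormant libraries, had 67.3 TPM of Aurkb against at most 0.04 TPM in the other dormant WT libraries. Cdc45, a replicative helicase subunit, was at 0 to 6.63 TPM in dormant KO against 34.8 to 66.8 TPM in growing KO, and Mcm6, another helicase subunit, at 2.76 to 16.1 TPM against 112 to 138 TPM. Neither was called in WT hosts, where dormant WT had 56.2, 0 and 30.9 TPM of Cdc45 and 0, 51.5 and 61.1 TPM of Mcm6. Rfc3, of the clamp loader, was at 35.8, 0.07 and 0 TPM across dormant WT against 72.0 to 102 TPM in growing WT, and at 16.97 to 40.7 TPM in dormant KO against 115 to 172 TPM in growing KO, not called there. The test of a difference between hosts was passed by none of Cdc45, Mcm6 and Rfc3 (limma adjusted p = 0.40, 0.63 and 0.427). Of the genes of mitosis, Nusap1 was called lower in KO hosts and Bub1 in both. Aurkb was lower in KO hosts too, but it met the filter only with the growing libraries and is a description. Mki67 and Pcna were called in neither host; Pcna was at 61.6, 262 and 82.5 TPM across dormant WT and 112 to 156 TPM in dormant KO against 191 to 260 TPM in growing cells. Dormant WT replicate 3 had 29.9 TPM of Mki67, with 0.17 and 0 TPM in the other dormant WT libraries.

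**Figure D4:**
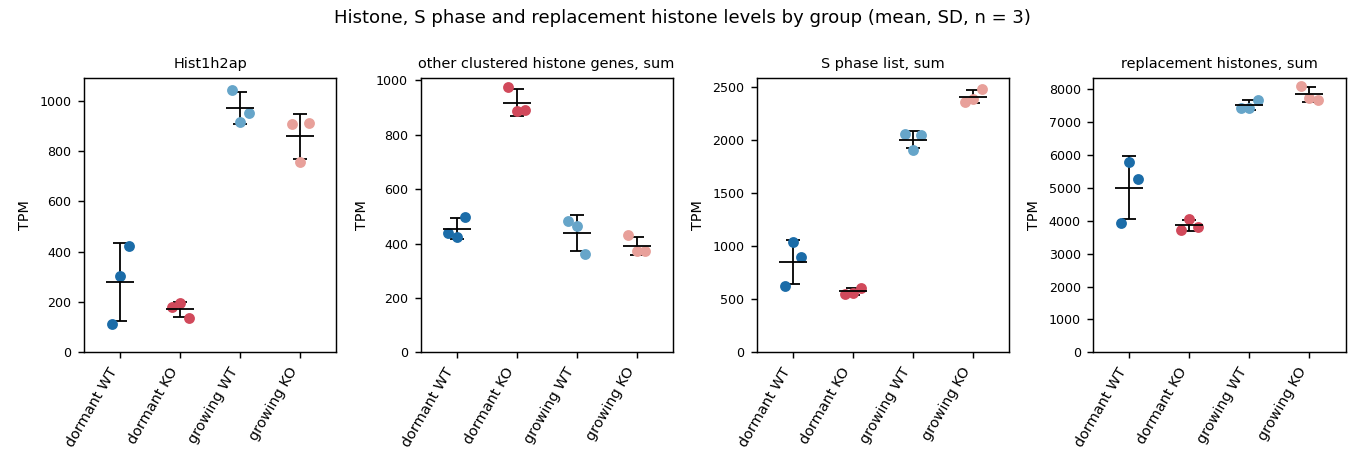
TPM in the 4 groups (points are libraries; horizontal marks and bars are the mean and SD, n = 3) for Hist1h2ap, the sum of the other clustered histone genes, the sum of 30 S phase genes and the sum of 11 replacement histone genes, each on its own axis from 0. Hist1h2ap, the S phase list and the replacement histones are lower in both dormant groups, whereas the other clustered histone genes are highest in dormant KO (888 to 976 TPM).

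Markers of lung and blood cells moved with the genes that were high in dormant KO. Of the marker lists, 8 of 10 alveolar type 2, 9 of 12 tested endothelial, 8 of 10 tested lymphocyte, 4 of 6 tested erythroid, 6 of 10 fibroblast and 3 of 12 tested macrophage markers exceeded dormant WT by the same call in dormant KO, beside 12.9% of all genes. Some of these markers, such as Lamp3 and Slc34a2, met the filter only through dormant KO. In dormant KO minus growing KO, part of the higher calls were of markers that met it only with the dormant libraries. These were 3 of 8 alveolar type 2, 6 of 9 endothelial, 4 of 7 lymphocyte, 2 of 8 macrophage and 1 of 4 fibroblast calls, and 0 of 4 erythroid ones. That split was not counted against dormant WT, so no support is drawn from the counts. The summed TPM of the lists in dormant KO and in dormant WT were 40207 to 42496 and 77.5 to 141 (alveolar type 2), 765 to 873 and 34.3 to 87.6 (endothelial), 307 to 383 and 0.02 to 7.62 (lymphocyte), 50831 to 56264 and 8988 to 13031 (erythroid), 1906 to 2194 and 227 to 246 (fibroblast), and 3597 to 3817 and 1757 to 2147 (macrophage). Of these 6 lists, the erythroid one was at 6196 to 7793 TPM in the growing libraries and none of the other 5 passed 563 TPM there. Of 9 tested markers of mammary carcinoma epithelium, 6 were also called higher and 1 lower in the dormant KO minus dormant WT comparison. Among the 6, Krt7 and Cldn7 were listed at 0 in every dormant WT library and met the filter only through dormant KO. Of the lymphocyte markers, 10 of 14 were at 0 in every dormant WT library. The part of such RNA in the dormant KO levels of Hist1h2bc, Hist2h2aa2, Hist1h4h and Hist1h4i was not tested, nor was the part of the satellite and olfactory receptor signal in the dormant WT values.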

How the data were processed

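The authors trimmed reads with Cutadapt, aligned them to mm10 with STAR 2.5.2b, quantified genes with RSEM on GENCODE annotation, and deposited TPM values (transcript abundance scaled for length and library total) per gene for each library; the submitters' processing notes give Cutadapt 1.18 and RSEM 1.3.3, and the study's methods give other versions. Library preparation is given as TruSeq mRNA in the labels but as Smart-seq2 on small sorted aliquots in the study's methods, so it is unsure which was used. Another 30 columns of the table belong to no sample here and were not used. TPM are not counts and hold no depth, so limma 3.58.1 (R 4.3.3; eBayes with trend) was fitted to log2(TPM + 1) of the 12 libraries with 4 group means and 6 contrasts, over 13002 genes at 1 TPM or more in at least 3 libraries, with Benjamini-Hochberg adjustment over all of them. The pseudocount of 1 understates changes of low genes. The study's triplicates are described as biological; p-values measure the spread between these libraries. Named were, per comparison, up to 6 members called higher and 6 lower, the 3 most abundant of each class, members with a called interaction, up to 3 called genes per pathway list, and 9 fixed pathway genes. Lsm4 was named outside this rule because it was called lower in both hosts. Members, lists and tests were chosen with earlier results of these data known. The fit was tested on simulated data. Gene positions, transcripts and copies are from GENCODE M21 (GRCm38), in which all 68 versioned gene identifiers were found. The study's methods give another release, GENCODE M12, for the quantification. The names Hist2h2aa1 and Hist2h2aa2 are exchanged between M21 and the table, and the table's names are used. Alternatives were other pseudocounts, filters, scalings, weights, thresholds, sample sets, a replicate block, each library left out and, chosen after seeing the data, near-identical copies summed and the count of calls over genes that met the filter in each state alone.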

Additional observations from a re-analysis of the deposited data

Results flagged for a closer look

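Of the 39 tested clustered histone genes, 4 (10.3%, beside 10.1% of all tested genes) had a dormant minus growing difference that differed between KO and WT hosts by limma's test of that difference itself, on the log2(TPM + 1) scale. The values (KO host minus WT host) were 2.02 for Hist1h2bc (adjusted p = 0.0396), 1.77 for Hist2h2aa2 (adjusted p = 0.0195), 5.29 for Hist1h4h (adjusted p = 0.004) and 2.38 for Hist1h4d (adjusted p = 0.0145). Hist1h4h and Hist1h4d were listed at 0 in every dormant WT library, so the size of their values depends on the pseudocount: over the settings tried it ran from 3.25 to 8.52 for Hist1h4h and from 0.69 to 7.30 for Hist1h4d. Dormant KO libraries lay above all others for Hist1h2bc, Hist2h2aa2 and Hist1h4h. For Hist1h4d they spanned 0.19 to 2.47 TPM, which overlaps growing WT. Hist1h4d met the filter only through growing WT and dormant KO, the groups in which it is high and which enter this difference with the same sign, so its value is a description and its p no support. The Hist1h4d call was lost with pseudocount 5 (where the difference fell below the size needed), with quantile normalization (adjusted p = 0.0827) and with array weights (adjusted p = 0.0681).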

How the results depend on the processing

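Of 34 calls of members over the 6 comparisons, 10 stood in every setting tried, 24 were lost in at least 1 and 0 changed direction. The number of members called in dormant KO minus dormant WT was 6, and 3 with array weights or 2 at an adjusted p of at most 0.01 (4 to 7 with each library left out). For growing KO minus growing WT it was 0, and 1, a lower call, with pseudocount 0.1, with only the groups compared or with array weights (0 to 0 with each library left out). For dormant WT minus growing WT it was 6, and 1 with pseudocount 5, with array weights or at an adjusted p of at most 0.01, 2 with a minimum of 5 TPM or quantile normalization, and 3 with no filter (2, without growing WT replicate 2, to 9, without dormant WT replicate 3). For dormant KO minus growing KO it was 6, and 10 with only the groups compared (4 to 8 with each library left out). Averaged over hosts it was 12, and 5 with pseudocount 5 or at an adjusted p of at most 0.01, and 7 with no filter, a minimum of 5 TPM or array weights (8 to 13 with each library left out). For the interaction it was 4, and 1 at an adjusted p of at most 0.01 (2 to 6 with each library left out). The cause of these shifts was not tested. The log2 difference of the summed TPM was 0.60 in dormant KO minus dormant WT, and 1.11 with median-ratio scaling or 1.01 without Hist1h2ap (0.41 to 0.77 with each library left out). It was -0.97 in dormant WT minus growing WT, and 0.0635 without Hist1h2ap (-1.14 to -0.78). It was -0.20 in dormant KO minus growing KO, and 0.40 with median-ratio scaling, 0.0886 with quantile normalization and 1.23 without Hist1h2ap (-0.27 to -0.15), so its sign depended on the scaling. Median-ratio scaling moved the median difference of all tested genes from 0.17 to 0.50 in dormant KO minus dormant WT and from -0.32 to 0.09 in dormant KO minus growing KO.

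Whether same-numbered dormant and growing libraries came from the same mouse is not given, and the main fit does not pair them. Deviations of same-numbered libraries from their group means correlated between -0.0123 and 0.0206, and those of other pairs between -0.0178 and 0.0191. In KO hosts same-numbered pairs lay at 0.0109 to 0.0206 and the others at -0.0178 to -0.000528. In WT hosts the ranges overlapped. A pairing can exist with values this near 0, so these correlations cannot decide it. With the replicate block, 4, 0, 5, 5, 11 and 4 members were called in the 6 comparisons in the order above. With near-identical copies summed, an alternative chosen after seeing the data, these counts were 5, 0, 6, 5, 11 and 4 of 35 tested members. The 15 members that met the filter in each state alone were also chosen after seeing the data. Over these the counts were 6, 0, 3, 6, 6 and 3. Of these, 5, 0, 0, 3, 2 and 3 were called higher, beside 10.7%, 0.858%, 2.09%, 4.49%, 4.04% and 4.28% of the 8857 such genes. Called lower were 1, 0, 3, 3, 4 and 0, beside 13%, 0.26%, 5.30%, 10.8%, 12.5% and 5.31%. All-gene shares under the replicate block, summed copies and the other settings are not given, so no support is drawn from those counts. Depth is unknown for TPM, so the limit of detection behind values listed at 0 cannot be given, and a fit without 1 library assumes that the remaining pair varies like the other groups.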
